A study of Arabidopsis thaliana with 12 samples.

Results

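The cytosolic 40S ribosomal protein genes of Arabidopsis thaliana were followed through the first hours of seed imbibition in wild-type and erf4 seeds. They were 59 of the 32833 genes in the count table, chosen by locus from a list of 22 protein families (Sa and S2 to S20). Within the list, 1 of these families had a single gene, 8 had 2 paralogs, 10 had 3 and 3 had 4. The list itself used no measured value, but it was set with earlier results of these data known. The 12 RNA sequencing libraries came from freshly harvested seeds, with 3 libraries in each of 4 groups. These were erf4 seeds imbibed for 6 h on wet filter paper, dry erf4 seeds, Col-0 seeds imbibed for 6 h, and dry Col-0 seeds. Col-0 is the wild-type accession. The mutant, written erf4 or erf4-1 in the labels, is named for ERF4, an ethylene response factor with a repressor motif. The sources used here do not describe the lesion or say whether the libraries of a group came from separate plants or seed lots, so p-values measure the spread between these libraries, which may be technical.

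The small subunit of the cytosolic ribosome joins 18S ribosomal RNA with a set of ribosomal proteins, reads the messenger RNA and selects the matching tRNA. In plants each protein is encoded by several paralogs that are not all used alike. Dry seeds store messenger RNA and ribosomes made during maturation, and protein synthesis resumes when they take up water. One member protein, S6, is the substrate of the S6 kinase that acts below the TOR kinase, a growth regulator that also promotes ribosome production.

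Total counts were 31787283 to 42590777 per library, where 3 counts amount to 0.070 to 0.094 CPM. Levels below are CPM, counts divided by the library total in units of 1e+06 and scaled by TMM, a normalization on the bulk of the genes, or the same per kilobase of exon (RPKM), which is the scale used between paralogs. ERF4 itself stood at 1.67, 7.03 and 14.9 CPM in the imbibed libraries labelled erf4 and at 3.88, 9.003 and 15.3 CPM in the dry ones, in the order of the replicate numbers. It stood at 21.03, 15.7 and 17 CPM in imbibed Col-0 and at 15.9, 13.6 and 12.5 CPM in dry Col-0. Replicate 3 labelled erf4 thus lay within the Col-0 range in dry seeds and just below it in imbibed seeds, above replicates 1 and 2 of its group. As the lesion is not described, the ERF4 level cannot tell whether these libraries are mutant. The name erf4 below gives the label. ERF4 was called in neither state (log2 fold change -1.18 ± 0.61 imbibed and -0.58 ± 0.61 dry, edgeR adjusted p = 0.387 and 0.691). Seed genes marked the tissue: the sum of CRA1 and CRU3 for storage proteins, OLEO1 for an oil body protein and EM1 for a late embryogenesis abundant protein was 60380 to 93660 CPM in imbibed erf4, 112400 to 137800 CPM in dry erf4, 77510 to 122000 CPM in imbibed Col-0 and 147100 to 204400 CPM in dry Col-0.

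Promoters of the members held a known element of ribosomal protein genes more often than those of other genes. The site II element, here the letters TGGGCC or TGGGCT on either strand, has been described in Arabidopsis promoters of ribosomal protein genes as a binding site of TCP factors. The telobox, here AAACCCTA on either strand, often lies near it. In the 250 bases before the annotated start, 37 of 59 members (62.7%) held a site II element, against 19.2% of 27443 protein-coding genes, and 26 members (44.1%) held 2 or more, against 11.8%. A telobox lay there in 10 members (16.9%) against 4.49% of the coding genes, and in the first 100 transcribed bases of 28 members (47.5%) against 3.88%. Neither element lay in the 250 bases of 18 members (30.5%), against 77.7%. The promoters of the pairs whose shares moved most between dry and imbibed seeds (S6, S3a and S19, described further on) are shown as examples. They were read from the RefSeq copy of TAIR10 on the strand of the gene, run 5′ to 3′ up to the base before the annotated start, stop short of any neighbouring gene, and have the site II letters in capitals, overlapping matches being counted as 1.
S6 AT4G31700, chr4:15347805-15348054, minus strand: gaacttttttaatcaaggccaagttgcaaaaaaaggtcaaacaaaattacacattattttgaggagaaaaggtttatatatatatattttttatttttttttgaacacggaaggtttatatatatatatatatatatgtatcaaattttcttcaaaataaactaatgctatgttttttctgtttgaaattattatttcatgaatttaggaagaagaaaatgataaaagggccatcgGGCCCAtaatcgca
S6 AT5G10360, chr5:3260255-3260504, minus strand: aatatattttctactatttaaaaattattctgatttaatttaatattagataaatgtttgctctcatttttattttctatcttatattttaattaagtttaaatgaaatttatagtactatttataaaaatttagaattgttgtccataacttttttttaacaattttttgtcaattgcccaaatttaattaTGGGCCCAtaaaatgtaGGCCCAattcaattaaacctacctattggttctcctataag
S3a AT3G04840, chr3:1329365-1329570, plus strand: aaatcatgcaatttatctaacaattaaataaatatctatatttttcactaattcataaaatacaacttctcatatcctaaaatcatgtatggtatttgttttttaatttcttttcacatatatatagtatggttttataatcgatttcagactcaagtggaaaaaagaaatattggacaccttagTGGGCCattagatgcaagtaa
S3a AT4G34670, chr4:16548495-16548599, plus strand: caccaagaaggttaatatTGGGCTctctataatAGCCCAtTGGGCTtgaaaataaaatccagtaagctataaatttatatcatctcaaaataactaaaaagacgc
S19 AT5G61170, chr5:24610782-24611031, plus strand: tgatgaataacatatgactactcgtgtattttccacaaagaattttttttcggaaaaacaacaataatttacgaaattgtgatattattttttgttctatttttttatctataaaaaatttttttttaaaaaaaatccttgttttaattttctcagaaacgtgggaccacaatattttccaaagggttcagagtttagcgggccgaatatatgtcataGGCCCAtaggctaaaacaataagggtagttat
S19 AT3G02080, chr3:365377-365536, minus strand: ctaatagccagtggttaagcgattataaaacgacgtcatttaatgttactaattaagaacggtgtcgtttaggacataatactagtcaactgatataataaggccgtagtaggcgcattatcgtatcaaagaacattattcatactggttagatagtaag
Within S6 and S3a the paralog that rose less with imbibition had more site II matches, 2 against 1 and 3 against 1, and within S19 it had none in the stretch shown, against 1. A match describes letters in the window and says nothing about which factor binds there.

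Levels of the members covered a wide range in every group. The median member had 219 RPKM in imbibed erf4, 119 RPKM in dry erf4, 162 RPKM in imbibed Col-0 and 89.4 RPKM in dry Col-0. In dry Col-0 the most abundant was AT1G72370, the single Sa gene of the list, whose protein joins the subunit late in its maturation in yeast. It had 524, 607.5 and 630.5 RPKM in imbibed erf4, 384, 379.8 and 411 RPKM in dry erf4, 482.5, 534 and 483 RPKM in imbibed Col-0 and 459.5, 439 and 357 RPKM in dry Col-0. Every imbibed library thus lay above every dry one of its own genotype, as for 31.1% of all tested genes in erf4 and 34.7% in Col-0. The rise was called in erf4 and not in Col-0 (edgeR adjusted p = 0.003 and 0.14). At the other end, the S15a gene AT2G39590 had no count in any library, which limits it to the level of 3 counts given above. The S15 gene AT5G09500 had 0 to 4 counts in each imbibed library, 9 to 14 in dry erf4 and 4 in each dry Col-0 library, and did not pass the filter on low counts. With DESeq2, which keeps such genes, AT5G09500 was the 1 member called lower after imbibition in erf4 (adjusted p = 0.000368, where 25.2% of all genes with an adjusted p were lower), and it was not called in Col-0. The other 57 members were tested among 18897 genes.

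Some members share sequence with a near copy, defined as at least 95% identity over at least 100 bases of transcript, so reads could be split between copies. These are AT1G58380 and AT1G59359 of S2, AT1G07770 of S15a, both S16 genes, and AT2G04390, AT2G05220 and AT5G04800 of S17, and their values are uncertain. AT1G59359 is identical over 1288 and 1223 aligned bases to a pair of genes outside the list. Its counts ran from 2 to 175 among imbibed and from 0 to 7 among dry libraries, so the states overlapped in both genotypes, although it is among the members called below. Coding sequences of paralogs were 72.6 to 98.2% identical over 56 pairs (median 84.8%). A further limit is that 16 members overlap another gene, and the strand setting of the counting is not given in the sources used here.

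**Figure D1:**
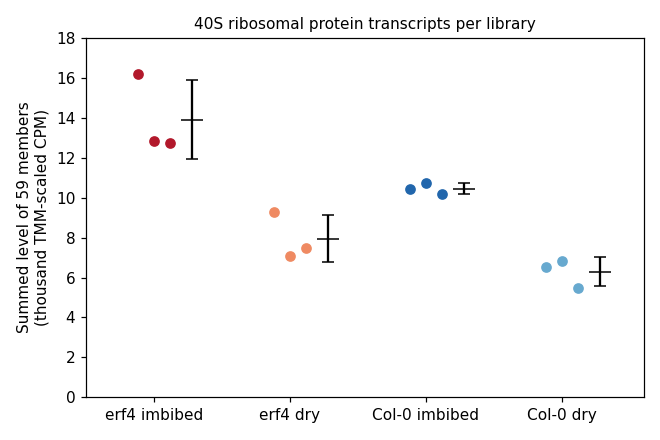
Summed level of the 59 members in TMM-scaled CPM divided by 1000 (vertical axis) for each library (points, 3 per group), with the group mean and SD (black bars). The imbibed erf4 libraries sit between 12741 and 16167 CPM, above all other groups, and both imbibed groups lie above the dry groups of both genotypes.

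After 6 h of imbibition most 40S transcripts were called higher in both genotypes, and none of the 57 tested was called lower. The members summed to 16167, 12812 and 12741 CPM in imbibed erf4 (13907 ± 1958, SD, n = 3), against 9300, 7088 and 7464 CPM in dry erf4 (7951 ± 1184). In Col-0 they summed to 10434, 10722 and 10193 CPM when imbibed (10450 ± 264.9), against 6536, 6847 and 5459 CPM when dry (6281 ± 728). The imbibed to dry ratio was 1.75 in erf4 and 1.66 in Col-0, and the libraries of the states did not overlap in either genotype. As a share of all counts, the members took 1.51 to 2.03% in imbibed erf4 against 0.552 to 0.856% in dry erf4, and 1.09 to 1.26% in imbibed Col-0 against 0.404 to 0.567% in dry Col-0. The TMM factors, by which the CPM differ from these shares, were 1.07 to 1.30 in imbibed and 0.740 to 0.929 in dry libraries.

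Calls were made with edgeR's quasi-likelihood F test where the p adjusted by Benjamini-Hochberg, across the whole set of tested genes, was under 0.05. By this test 49 of the 57 tested members rose in erf4 and 0 fell, where 28.4% of all tested genes rose and 27.2% fell. In Col-0 44 rose and 0 fell, where 27.2% of all tested genes rose and 25.2% fell. A rise of at least 2-fold was called for 25 members in erf4 (16.7% of all genes) and 20 in Col-0 (15.6%), 19 of them in both. The median log2 fold change of the members was 0.82 in erf4 and 0.86 in Col-0, beside 0.04 and 0.05 over all genes tested. Libraries did not overlap between the states for 48 members in erf4 (31.1% of all genes lay higher in this way) and for 54 in Col-0 (34.7%). Of the 4 seed genes, CRU3, OLEO1 and EM1 were called lower after imbibition in erf4, and CRA1, CRU3 and OLEO1 in Col-0. All 5 pollen and anther markers (VGD1, AGP23, sks13, BGAL11 and CHX23) were also called lower in both, with summed marker levels of 1.77 to 2.93 CPM in imbibed erf4 against 17.8 to 47.7 CPM in dry erf4, and 1.15 to 2.22 CPM in imbibed Col-0 against 204 to 364 CPM in dry Col-0. The part of these shifts in the 40S values was not tested. The library names end in b or r, a letter the labels do not explain, and all 6 imbibed libraries end in r, as do 2 of 3 dry erf4 and 1 of 3 dry Col-0 libraries. Among libraries with r, the summed 40S level was 16167, 12812 and 12741 CPM in imbibed erf4 against 7088 and 7464 CPM in dry erf4. It was 10434, 10722 and 10193 CPM in imbibed Col-0 against 5459 CPM in the 1 such dry Col-0 library. With the letter as a covariate 53 members rose in erf4 (28.7% of all genes) and 52 in Col-0 (23.2%). In bulk RNA, more cells of a type and more RNA per cell cannot be told apart.

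**Figure D2:**
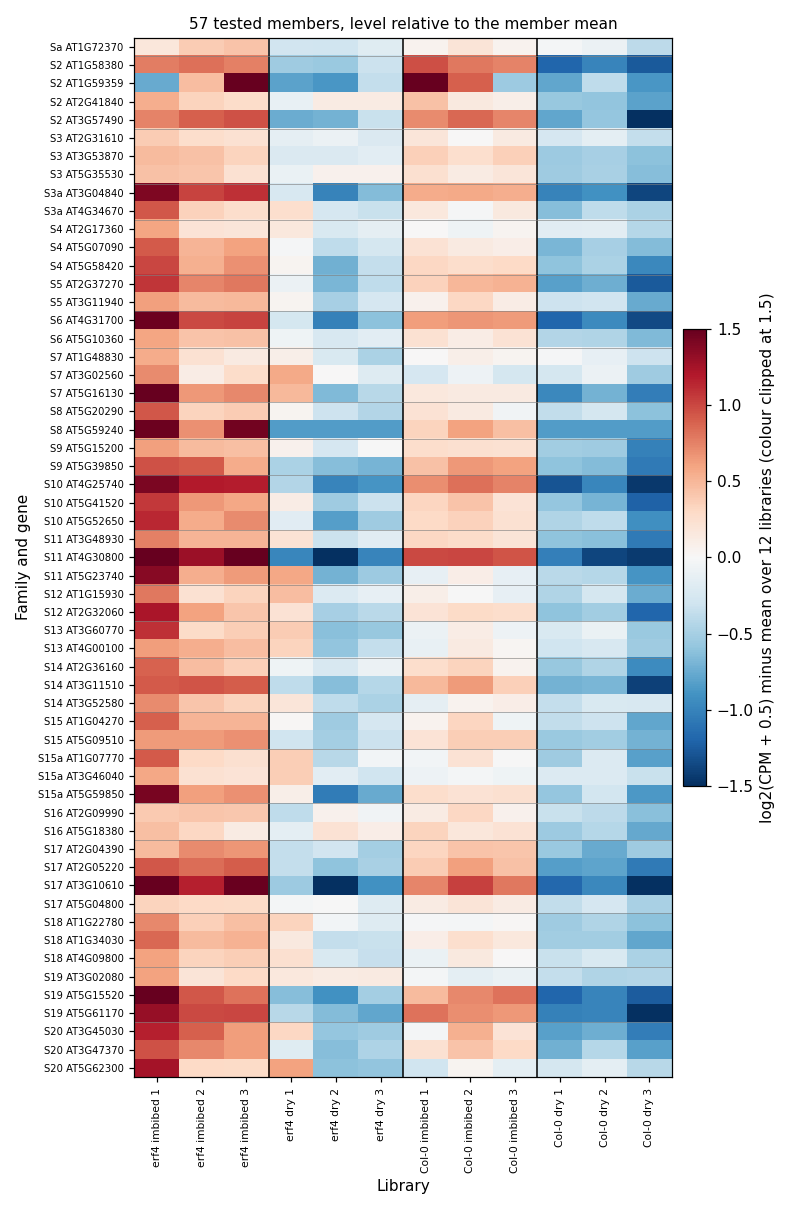
Level of each of the 57 tested members (rows, grouped by family) in each library (columns), as log2(CPM + 0.5) minus the member's mean over the 12 libraries, with red higher, blue lower and colours clipped at 1.5. Imbibed columns are mostly red and dry columns mostly blue in both genotypes, and the first library labelled erf4 is the reddest among the imbibed ones.

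The largest rises were in minor paralogs. AT5G59240 of S8, a protein of the subunit body, had no count in any of the 6 dry libraries. It had 2.21, 1.04 and 2.16 RPKM in imbibed erf4 and 0.701, 0.952 and 0.8002 RPKM in imbibed Col-0, from 42 to 96 counts and 25 to 36 counts per library. Set against 3 counts over the dry group, it was at least 52.1-fold higher in imbibed erf4 and at least 22.9-fold higher in imbibed Col-0. It made up at most 0.378% of the S8 level in any library, the rest being AT5G20290.

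AT4G30800 of S11, a protein that binds early in assembly of the small subunit, had 17.2, 9.44 and 11.4 RPKM in imbibed erf4 against 1.58, 0.477 and 1.56 RPKM in dry erf4. In Col-0 it had 7.58, 7.69 and 7.32 RPKM when imbibed against 1.5, 1.08 and 1.01 RPKM when dry. Imbibed and dry libraries did not overlap in either genotype. These are log2 fold changes of 3.36 ± 0.36 (SE, edgeR adjusted p = 6.59e-06) and 2.65 ± 0.36 (adjusted p = 4.61e-05). AT3G10610 of S17 stood at 96.7, 52.2 and 65.3 RPKM in imbibed erf4 against 15.5, 7.19 and 11.9 RPKM in dry erf4, and at 38.5, 47.2 and 40.2 RPKM in imbibed Col-0 against 9.87, 11.5 and 5.13 RPKM in dry Col-0. Its log2 fold changes were 2.62 ± 0.33 in erf4 and 2.24 ± 0.33 in Col-0 (edgeR adjusted p = 3.44e-05 and 0.000125).

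S10 is a protein of the subunit head that is ubiquitylated on stalled ribosomes in mammals. Its minor paralog AT4G25740 had 119, 102 and 101 RPKM in imbibed erf4 against 32.7, 22.03 and 23.8 RPKM in dry erf4, and 72.1, 79.3 and 74.5 RPKM in imbibed Col-0 against 17.7, 22.3 and 15.9 RPKM in dry Col-0. Both changes were close to 4-fold, at 2.04 ± 0.16 in erf4 and 2.01 ± 0.17 in Col-0 on the log2 scale (edgeR adjusted p = 7.11e-07 and 9.84e-07). The S2 gene AT1G58380, for a protein near the entry of the mRNA channel, rose with imbibition to 66.4, 69.3 and 65.98 RPKM in erf4, against 26.8, 26.3 and 31.2 RPKM in dry erf4. In Col-0 it had 76.8, 67.7 and 65.6 RPKM imbibed against 16.9, 19.5 and 16.04 RPKM dry, so the imbibed levels of the genotypes overlapped while the dry ones did not. Its log2 fold change was 1.26 ± 0.12 in erf4 and 2.00 ± 0.12 in Col-0 (edgeR adjusted p = 2.15e-06 and 1.23e-07).

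In 5 members of 4 families no change was called in either genotype. These were AT3G02560 of S7, AT1G15930 of S12, AT1G07770 and AT3G46040 of S15a, and AT5G62300 of S20. AT3G02560 had log2 fold changes of 0.23 ± 0.20 in erf4 and 0.09 ± 0.20 in Col-0, and the Col-0 value was -0.024 without dry Col-0 replicate 3. A call was made in erf4 alone for 8 members and in Col-0 alone for 3, and in both for 41. The interaction test, of the difference between the genotypes in this response, called none of these 11. Over the 55 members with at least 10 counts in every library, the log2 fold changes of the genotypes, which share no library, had r = 0.877 across genes, which are not independent replicates. Same-numbered erf4 libraries of the states deviated together, and with the number as a block on the erf4 libraries alone AT1G15930, AT3G46040, AT5G62300, AT1G07770 and AT2G41840 were called higher in imbibed erf4 (edgeR adjusted p = 0.00467, 0.0108, 7.91e-05, 0.00247 and 0.0335). With the block on all 12 libraries the call of AT1G59359 in erf4 was lost (edgeR adjusted p = 0.0839).

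**Figure D3:**
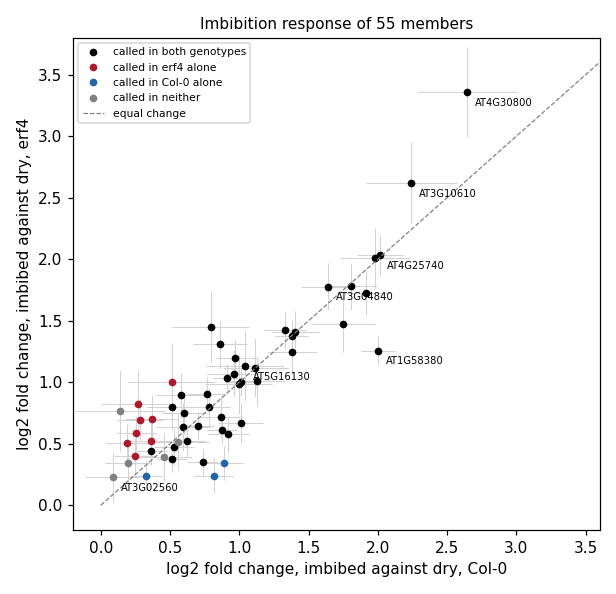
Log2 fold change of imbibed against dry seeds in erf4 (vertical) and in Col-0 (horizontal) for 55 members, with SE bars and the line of equal change. AT5G59240 and AT1G59359, which had libraries at 0, are not drawn; all 55 points lie above 0 on both axes and AT4G30800 lies farthest out.

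The paralogs of a family did not keep their proportions. A paralog's share is its RPKM over the summed RPKM of its family in a library, and shares were described and not tested. In 18 of the 21 families with paralogs, at least 1 member had a share in the 6 imbibed libraries that did not overlap that in the 6 dry ones. This held for 19 members with a higher and 13 with a lower share when imbibed. The shares of a pair of paralogs mirror each other. S3a, S5, S6, S8, S9 and S12 are such pairs, and each gave 1 higher and 1 lower member. S15 counted only through AT5G09500, which did not pass the filter on low counts (0 to 0.026% imbibed, 0.052 to 0.286% dry). S8 counted only through the minor AT5G59240 and its mirror (0.138 to 0.378% imbibed, 0% dry). How often shares in other gene families fail to overlap was not tested. When the most abundant paralog of each family was taken from dry Col-0, its share was lower in imbibed than in dry erf4 in 18 of the 21 families (median -6.91 percentage points), the exceptions being S3, S13 and S15a. Taken from dry erf4, it was lower in imbibed than in dry Col-0 in 16 of 21 (median -6.52 points). The paralog that led a family by group mean differed between at least a pair of the 4 groups in 10 families.

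In S6, the target of the S6 kinase, AT5G10360 led in all 6 dry libraries and AT4G31700 in all 6 imbibed ones. AT4G31700 had 510.3, 366 and 371 RPKM in imbibed erf4 against 153, 90.6 and 120.0 RPKM in dry erf4, and 283, 292 and 288 RPKM in imbibed Col-0 against 80.4, 94.8 and 72 RPKM in dry Col-0. AT5G10360 had 293, 262 and 265 RPKM in imbibed erf4 against 187, 165 and 174 RPKM in dry erf4, and 228, 210.5 and 226 RPKM in imbibed Col-0 against 143.5, 142.5 and 123 RPKM in dry Col-0. AT4G31700 thus supplied 60.04 ± 3.03% of the family in imbibed erf4 against 40.4 ± 4.78% in dry erf4, and 56.5 ± 1.41% in imbibed Col-0 against 37.6 ± 2.12% in dry Col-0 (SD, n = 3). Both paralogs rose, with log2 fold changes of 1.78 ± 0.19 and 1.80 ± 0.19 for AT4G31700 in erf4 and Col-0, beside 0.64 ± 0.12 and 0.70 ± 0.12 for AT5G10360. The edgeR adjusted p was 6.77e-06 and 7.09e-06 for the first gene, and 0.000398 and 0.000228 for the other. The coding sequences of the pair are 84.7% identical.

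S3a lies at the platform, where the initiation factor eIF3 binds. AT3G04840 had 476, 364 and 385.5 RPKM in imbibed erf4 against 153, 89.5 and 115 RPKM in dry erf4, and 265, 266 and 262 RPKM in imbibed Col-0 against 89.3, 95.9 and 69.01 RPKM in dry Col-0. AT4G34670 had 464, 308 and 292.5 RPKM in imbibed erf4 against 290.1, 203.5 and 193 RPKM in dry erf4, and 272, 239.5 and 270.0 RPKM in imbibed Col-0 against 156, 186.5 and 175 RPKM in dry Col-0. The share of AT3G04840 was 53.9 ± 3.13% in imbibed erf4 against 34.1 ± 3.40% in dry erf4, and 50.4 ± 1.93% in imbibed Col-0 against 32.9 ± 4.18% in dry Col-0. It led in all 3 imbibed erf4 libraries, but in 1 of 3 imbibed Col-0 libraries, where the paralogs were about level. Its log2 fold change was 1.78 ± 0.19 in erf4 and 1.64 ± 0.19 in Col-0, and that of AT4G34670 was 0.63 ± 0.19 and 0.59 ± 0.19 (edgeR adjusted p = 6.3e-06 and 1.33e-05 for AT3G04840, and 0.0134 and 0.0202 for AT4G34670).

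S19, needed for the maturation of 18S ribosomal RNA in yeast and human cells, had the largest change of share of the 21 families. AT5G61170 had 186, 148.5 and 149.7 RPKM in imbibed erf4 against 55.7, 47.2 and 43.2 RPKM in dry erf4, and 132, 122 and 117.5 RPKM in imbibed Col-0 against 36.7, 37.4 and 24.2 RPKM in dry Col-0. AT3G02080 had 194, 147 and 158 RPKM in imbibed erf4 against 143, 139 and 139.8 RPKM in dry erf4, and 125, 116 and 119 RPKM in imbibed Col-0 against 99.5, 93.5 and 93.7 RPKM in dry Col-0. The share of AT5G61170 was 47.4 ± 1.03% in imbibed erf4 against 25.2 ± 2.24% in dry erf4, and 48.9 ± 1.18% in imbibed Col-0 against 24.9 ± 4.18% in dry Col-0. AT3G02080, which supplied most of the dry level, stood about even with it in imbibed seeds. The other paralog, AT5G15520, stayed small, at 19.5, 11.02 and 10.2 RPKM in imbibed erf4 against 3.45, 2.80 and 3.84 RPKM in dry erf4, and 7.95, 9.50 and 10.2 RPKM in imbibed Col-0 against 2.23, 2.63 and 2.13 RPKM in dry Col-0. It rose by 2.01 ± 0.25 in erf4 and 1.98 ± 0.25 in Col-0 on the log2 scale (edgeR adjusted p = 1.76e-05 and 2.55e-05). AT5G61170 rose by 1.73 ± 0.17 and 1.92 ± 0.17 (adjusted p = 2.98e-06 and 1.69e-06).

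In S17, a protein of the head, and S4, a protein of the body, 1 paralog led by RPKM in all 6 dry libraries and another in all 6 imbibed ones. The imbibed leads depended on scaling by exonic length. By mean CPM, AT5G04800 led S17 in imbibed seeds too. It had 158.6 CPM against 152.4 CPM for AT2G05220 in imbibed erf4, and 141.8 against 114.5 CPM in imbibed Col-0. In S17, AT2G05220 had 162, 152 and 160.3 RPKM in imbibed erf4 against 66.4, 55.9 and 60.4 RPKM in dry erf4, and 111, 130.0 and 115 RPKM in imbibed Col-0 against 47.7, 49 and 40.5 RPKM in dry Col-0. AT5G04800, the leading gene in dry seeds, had 113, 111 and 109.8 RPKM in imbibed erf4 against 88.04, 89.8 and 79.01 RPKM in dry erf4, and 97.96, 103 and 97.8 RPKM in imbibed Col-0 against 69.6, 75.5 and 63.95 RPKM in dry Col-0. AT2G04390 lay at 118, 139 and 135 RPKM in imbibed erf4 against 66.4, 69.5 and 59.6 RPKM in dry erf4, and 107, 114 and 114 RPKM in imbibed Col-0 against 57.5, 50.2 and 58.5 RPKM in dry Col-0. The S17 genes just given are near copies of each other, so their split is uncertain, while AT3G10610 has no near copy and its share was 15.03 ± 4.23% in imbibed erf4 against 5.15 ± 1.73% in dry erf4, and 11.3 ± 0.621% in imbibed Col-0 against 4.86 ± 1.62% in dry Col-0.

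In S4, AT5G58420 had 312, 224 and 249 RPKM in imbibed erf4 against 159, 93.8 and 120.5 RPKM in dry erf4, and 193, 186 and 190.2 RPKM in imbibed Col-0 against 102, 112 and 79.02 RPKM in dry Col-0. AT2G17360, which led in dry seeds, had 275, 211 and 207 RPKM in imbibed erf4 against 203, 155 and 167 RPKM in dry erf4, and 183, 174 and 188 RPKM in imbibed Col-0 against 162, 163 and 135 RPKM in dry Col-0. Its share was 31.6 ± 1.16% in imbibed erf4 against 41.1 ± 1.52% in dry erf4, and 33.95 ± 0.971% in imbibed Col-0 against 44.2 ± 1.29% in dry Col-0. AT5G07090 led in no library by RPKM, with 279.6, 210.1 and 224 RPKM in imbibed erf4, 146, 113 and 123 RPKM in dry erf4, 171, 162 and 158 RPKM in imbibed Col-0 and 91.3, 104 and 93.4 RPKM in dry Col-0. By mean CPM, however, AT5G07090 led S4 in both imbibed groups. It had 333.1 CPM in imbibed erf4 and 229.2 CPM in imbibed Col-0, against 295.1 and 213.7 CPM for AT5G58420.

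**Figure D4:**
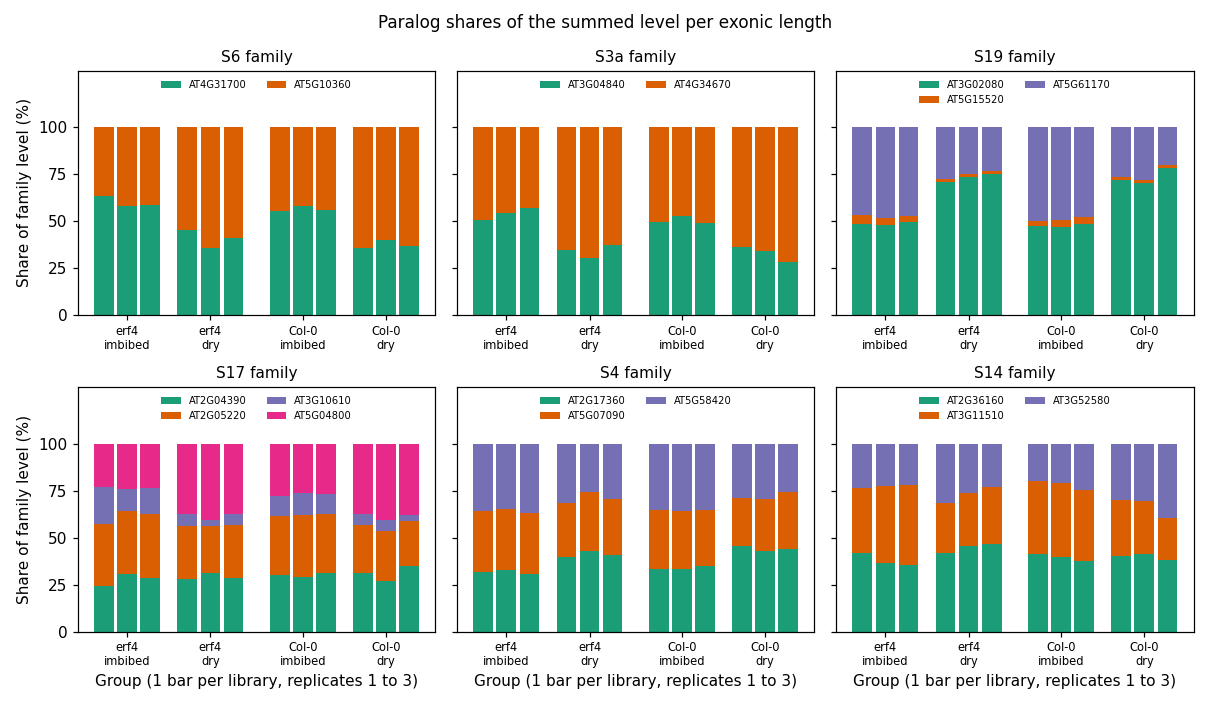
Share of each paralog (colours) in the summed level per exonic length of its family, in percent, for 6 families and 12 libraries (1 bar each, replicates 1 to 3 within a group). In S6 the green AT4G31700 takes 55.4 to 63.5% in imbibed and 35.5 to 45.0% in dry libraries, and in S19 the purple AT5G61170 takes 46.5 to 49.8% and 20.1 to 28.01%.

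S14, at the platform beside the mRNA exit, shifted towards AT3G11510. It had 316, 320.4 and 314 RPKM in imbibed erf4 against 128, 107 and 124 RPKM in dry erf4, and 234, 261 and 214 RPKM in imbibed Col-0 against 102, 103 and 63.01 RPKM in dry Col-0. Its share did not overlap between the states (39.5 ± 4.05% in imbibed and 28.5 ± 1.66% in dry erf4, 38.9 ± 1.06% in imbibed and 26.9 ± 3.84% in dry Col-0). AT2G36160 had 377, 282 and 262 RPKM in imbibed erf4, 196, 173 and 192 RPKM in dry erf4, 246.5, 258 and 213 RPKM in imbibed Col-0 and 138, 149.8 and 106 RPKM in dry Col-0. AT3G52580 had 214, 175 and 165 RPKM in imbibed erf4, 148, 99.7 and 93.99 RPKM in dry erf4, 119, 135.5 and 140.3 RPKM in imbibed Col-0 and 102, 111 and 110.4 RPKM in dry Col-0. Its states did not overlap within either genotype, but its rise was called in erf4 alone (edgeR adjusted p = 0.00302 in erf4 and 0.164 in Col-0).

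S12, in the beak of the subunit, has a pair of paralogs of which AT2G32060 gained share. AT2G32060 had 244, 159 and 139 RPKM in imbibed erf4 against 122, 73.9 and 78.8 RPKM in dry erf4, and 120.1, 127 and 125 RPKM in imbibed Col-0 against 68.5, 72.8 and 45.6 RPKM in dry Col-0. AT1G15930 had 220.4, 149 and 161 RPKM in imbibed erf4 against 175, 111 and 117 RPKM in dry erf4, and 136, 127 and 117.5 RPKM in imbibed Col-0 against 93.4, 106.5 and 76.2 RPKM in dry Col-0. The pair was about even when imbibed, and AT1G15930 took 59.6 ± 0.520% in dry erf4 and 59.9 ± 2.49% in dry Col-0.

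In S15a, a protein of the body that contacts the core of 18S ribosomal RNA, AT5G59850 gained share. It had 400.3, 228 and 240.3 RPKM in imbibed erf4 against 158, 71.6 and 88.4 RPKM in dry erf4, and 178.5, 173.5 and 176.5 RPKM in imbibed Col-0 against 99.8, 123 and 81.8 RPKM in dry Col-0. AT3G46040 had 153, 119.8 and 117 RPKM in imbibed erf4, 132, 91.2 and 83.1 RPKM in dry erf4, 97.1, 100.2 and 97.3 RPKM in imbibed Col-0 and 88.6, 88.2 and 80.7 RPKM in dry Col-0. AT1G07770 had 97.5, 63.1 and 60.9 RPKM in imbibed erf4, 66.5, 38.4 and 50.04 RPKM in dry erf4, 49.98, 59.5 and 50.9 RPKM in imbibed Col-0 and 35.4, 44.5 and 29.04 RPKM in dry Col-0. The share of AT5G59850 was 58.2 ± 3.08% in imbibed erf4 against 39.9 ± 4.35% in dry erf4, and 53.8 ± 1.48% in imbibed Col-0 against 45.2 ± 2.80% in dry Col-0.

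S13 was the family whose lead had no direction. AT3G60770 had 505, 289 and 305 RPKM in imbibed erf4, 308, 152 and 159.8 RPKM in dry erf4, 223, 255 and 224 RPKM in imbibed Col-0 and 202, 221 and 159.9 RPKM in dry Col-0. AT4G00100, also named RPS13A, had 359, 338 and 320.4 RPKM in imbibed erf4, 292, 154 and 180.4 RPKM in dry erf4, 214, 254 and 236 RPKM in imbibed Col-0 and 188.5, 196 and 160.4 RPKM in dry Col-0. Either gene led in at least 1 library of every group, and the mean share of AT3G60770 lay between 49.3 and 51.5%. By family sum, the imbibed to dry ratio ran from 1.22 (S16) to 2.37 (S10) in erf4, and from 1.19 (Sa) to 2.33 (S6) in Col-0.

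Apart from S7, described further on, the families not yet described kept the same most abundant paralog by group mean in all 4 groups. In S5, at the mRNA exit, both genes rose in both genotypes, AT2G37270 by 1.24 ± 0.17 in erf4 and 1.38 ± 0.17 in Col-0 and AT3G11940 by 0.75 ± 0.16 in erf4 and 0.60 ± 0.16 in Col-0 on the log2 scale. The S20 genes AT3G45030 and AT3G47370, for a head protein, also rose in both, AT3G45030 by 1.12 ± 0.23 in erf4 and 1.12 ± 0.23 in Col-0, while AT5G62300 stood at 0.77 ± 0.32 in erf4 and 0.14 ± 0.32 in Col-0 without a call. In S18, a head protein near the contact with the large subunit, AT1G22780 and AT1G34030 rose in both genotypes, and AT4G09800 was called in erf4 alone (0.53 ± 0.15 in erf4 and 0.37 ± 0.15 in Col-0). In S16, whose tail reaches the decoding site, AT2G09990 rose in both and AT5G18380 was called in Col-0 alone (0.24 ± 0.14 in erf4 and 0.81 ± 0.14 in Col-0). The major S8 gene AT5G20290, the S15 genes AT1G04270 and AT5G09510, the S3 genes AT2G31610, AT3G53870 and AT5G35530, the S2 gene AT3G57490 and the S11 gene AT3G48930 rose in both genotypes, and AT5G23740 of S11 was called in erf4 alone (1.00 ± 0.32 in erf4 and 0.51 ± 0.31 in Col-0).

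Dry seeds labelled erf4 had slightly higher 40S transcripts than dry Col-0, but few members passed the test. The sums were 9300, 7088 and 7464 CPM in dry erf4 against 6536, 6847 and 5459 CPM in dry Col-0, a ratio of 1.27 with no overlap. In edgeR 4 of 57 members were higher and 0 lower, where 0.519% of all tested genes were higher and 0.577% lower. The log2 fold change was above 0 for 53 members, with a median of 0.39 beside 0.01 for the full set tested. With no adjustment, 29 members were higher and 0 lower at p under 0.05, where 8.09% of all genes were higher, and 27 did not overlap, all higher in erf4 (8.18% of all genes). DESeq2 called 12, all higher (2.27% of all genes).

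The 4 called members belong to S2, S3 and S19. AT2G41840 of S2 had 215, 252 and 251 RPKM in dry erf4 against 156, 154 and 133 RPKM in dry Col-0 (log2 fold change 0.70 ± 0.14, edgeR adjusted p = 0.0336). Its imbibed levels overlapped, at 338, 292 and 279.7 RPKM in erf4 and 316, 257 and 247 RPKM in Col-0. Another S2 gene, AT1G58380, whose values are given above, was higher in dry erf4 by 0.69 ± 0.12 (adjusted p = 0.0167). AT5G35530 of S3, a protein lining the mRNA entry, had 139.7, 156 and 156 RPKM in dry erf4 against 103, 107 and 96.2 RPKM in dry Col-0 (0.56 ± 0.11, adjusted p = 0.031). It had 203, 199 and 175 RPKM in imbibed erf4 and 177, 164 and 170.2 RPKM in imbibed Col-0, where the genotypes overlapped. AT3G02080 of S19 was higher by 0.56 ± 0.12 in dry erf4 (adjusted p = 0.0384).

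The calls depended on single libraries. No member was called without dry Col-0 replicate 1, without dry Col-0 replicate 3, without dry erf4 replicate 3, or with dry libraries alone in the fit (0.0877 to 0.238% of all genes were called higher in these fits). One was called without dry Col-0 replicate 2 and 1 without imbibed Col-0 replicate 2, and 2 without imbibed Col-0 replicate 3 (0.196 to 0.33% of all genes). Without dry erf4 replicate 1, 4 were called, and 3 without dry erf4 replicate 2. Leaving out imbibed erf4 replicate 1, 2 or 3 gave 5, 4 and 3 calls, and leaving out imbibed Col-0 replicate 1 gave 3. In these fits 0.382 to 0.86% of all genes were called higher. Without both libraries labelled erf4 replicate 3, whose ERF4 lay near the Col-0 level, 0 were called (0.183% of all genes).

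Other transcripts moved with the genotype in dry seeds. The 5 pollen and anther markers summed to 17.8 to 47.7 CPM in dry erf4 against 204 to 364 CPM in dry Col-0, all 5 called lower, and no marker had a group mean of 0. The 4 green tissue markers (RBCS1A, CAB1, CAB2 and LHCA1) summed to 62.9 to 187 CPM in dry erf4 against 39.5 to 57.9 CPM in dry Col-0, with 0 of 3 tested called. The dry libraries with b had 9300 CPM of 40S transcripts in erf4 against 6536 and 6847 CPM in Col-0, and those with r had 7088 and 7464 CPM in erf4 against 5459 CPM in Col-0. With the letter as a covariate 18 members were called higher, where 1.18% of all tested genes were. The part of the pollen and green tissue markers in the difference was not tested.

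Imbibed seeds gave a similar difference in size and no call in edgeR. The members summed to 16167, 12812 and 12741 CPM in imbibed erf4 against 10434, 10722 and 10193 CPM in imbibed Col-0, a ratio of 1.33 with no overlap. In edgeR 0 of 57 members were called, the lowest adjusted p being 0.134 (AT3G02080), where 0.0159% of all tested genes were higher and 0.00529% lower. At an unadjusted p under 0.05, 39 members were higher and 0 lower, where 7.13% of all genes were higher, and 47 did not overlap, all higher in erf4 (13.1% of all genes). The median log2 fold change was 0.46 (0.01 over all genes), with 56 of 57 above 0, and DESeq2 called 7, all higher (1.55% of all genes). Pollen markers summed to 1.77 to 2.93 CPM in imbibed erf4 against 1.15 to 2.22 CPM in imbibed Col-0, so that the ranges overlapped. Green tissue markers summed to 86.7 to 133 CPM in imbibed erf4 against 36.9 to 60.3 CPM in imbibed Col-0, with 0 of 3 tested called, and their part in the difference was not tested.

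**Figure D5:**
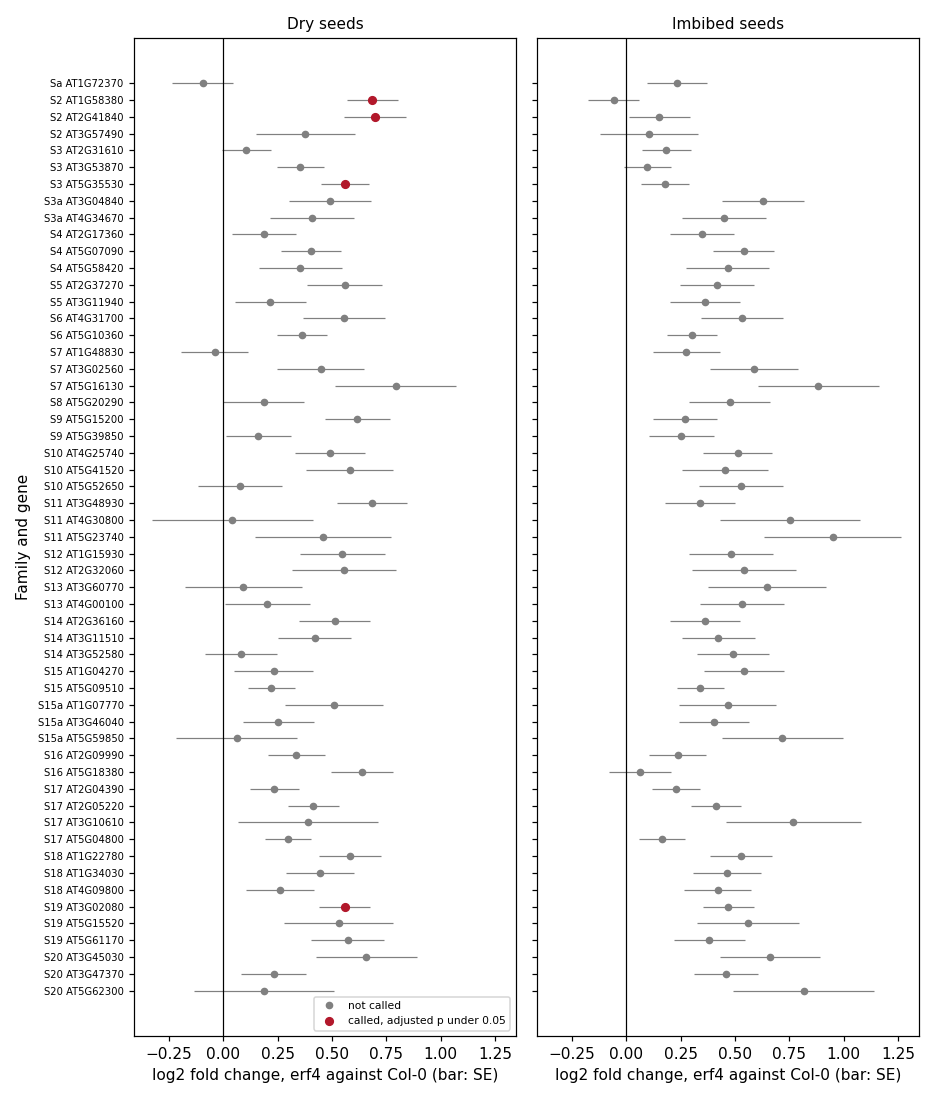
Log2 fold change of erf4 against Col-0 (horizontal, with SE bars) in dry seeds (left) and imbibed seeds (right) for 55 members by family. The 4 members called at an adjusted p under 0.05 are red; most other points also lie right of 0, with bars that often reach towards it. AT5G59240 and AT1G59359, which had libraries at 0, are not drawn.

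The first library labelled erf4 stood apart in both states. Of 57 members, 52, 32 and 40 lay above every dry Col-0 library in the 3 dry erf4 libraries by number, and 53, 53 and 50 lay above every imbibed Col-0 library in the imbibed ones. The median ratio to the Col-0 mean was 1.5, 1.18 and 1.27 in dry and 1.58, 1.23 and 1.26 in imbibed erf4. ERF4 was lowest in the first library of each state (3.88 and 1.67 CPM), while replicates 2 and 3 had similar 40S levels, though ERF4 was lower in replicate 2. The median spread of a member within a group (SD over mean) was 14.3% in imbibed erf4, 19.1% in dry erf4, 6.13% in imbibed Col-0 and 12.2% in dry Col-0.

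Averaged over the states, S7 differed most between the genotypes in its paralog shares. AT5G16130 had 462, 253 and 267 RPKM in imbibed erf4 against 179, 177 and 177 RPKM in imbibed Col-0, and 226, 101.5 and 120.1 RPKM in dry erf4 against 81.95, 98.1 and 78.4 RPKM in dry Col-0. AT1G48830 had 161, 129 and 121 RPKM in imbibed erf4 against 111, 116 and 113 RPKM in imbibed Col-0, and 117, 94.1 and 78.9 RPKM in dry erf4 against 109, 101 and 88.5 RPKM in dry Col-0. AT3G02560 had 157, 105 and 117 RPKM in imbibed erf4 against 80.7, 91.4 and 80.3 RPKM in imbibed Col-0, and 143, 96.7 and 84 RPKM in dry erf4 against 80.4, 90.8 and 66.4 RPKM in dry Col-0. The share of AT5G16130 was 54.7 ± 3.93% in imbibed erf4 against 47.4 ± 1.26% in imbibed Col-0, and 41.2 ± 5.96% in dry erf4 against 32.6 ± 2.04% in dry Col-0. That of AT1G48830 was 23.7 ± 2.96% against 30.2 ± 0.347% in the same imbibed groups and 28.1 ± 4.04% against 37.6 ± 2.67% in the dry ones. Neither share overlapped between erf4 and Col-0 libraries in either state, and AT1G48830 led the family in dry Col-0 alone. S7 was picked for the size of this difference, so the lack of overlap is no separate evidence for it. The share of AT2G17360 of S4 did not overlap in either state as well (erf4 minus Col-0, -3.06 points dry and -2.34 points imbibed). By edgeR AT5G16130 was not called, at 0.79 ± 0.28 in dry and 0.88 ± 0.28 in imbibed seeds (adjusted p = 0.191 and 0.198).

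By that average S10 and S9 followed, with differences in dry seeds. In S10, AT5G41520 (RPS10B) had 369, 279.6 and 264 RPKM in imbibed erf4 against 222, 239 and 204 RPKM in imbibed Col-0, and 191, 122 and 141 RPKM in dry erf4 against 118, 109 and 76.2 RPKM in dry Col-0. AT5G52650 had 285, 190.5 and 212.5 RPKM in imbibed erf4 against 159.9, 165 and 152 RPKM in imbibed Col-0, and 115, 72.7 and 89.7 RPKM in dry erf4 against 95, 99.8 and 68.4 RPKM in dry Col-0. The share of AT5G41520 was 56.04 ± 0.499% in dry erf4 against 48.7 ± 2.22% in dry Col-0, without overlap, and 47.5 ± 1.58% in imbibed erf4 against 48.6 ± 1.09% in imbibed Col-0.

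S9 is a body protein at the mRNA entry. AT5G15200 had 372, 337 and 332 RPKM in imbibed erf4 against 292, 287 and 285 RPKM in imbibed Col-0, and 253, 203 and 242.5 RPKM in dry erf4 against 168, 168 and 119.8 RPKM in dry Col-0. AT5G39850 had 258, 252 and 197 RPKM in imbibed erf4 against 180.3, 209.7 and 202.5 RPKM in imbibed Col-0, and 95.6, 85.6 and 82.2 RPKM in dry erf4 against 87.3, 84.7 and 63.7 RPKM in dry Col-0. AT5G15200 took 72.5 ± 2.17% of the family in dry erf4 against 65.9 ± 0.584% in dry Col-0, and 59.7 ± 2.83% in imbibed erf4 against 59.4 ± 2.19% in imbibed Col-0, where the libraries overlapped.

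In imbibed seeds alone the largest difference was in S11, which was singled out after its values were seen. AT3G48930 had 321, 270.0 and 269 RPKM in imbibed erf4 against 235, 228 and 216 RPKM in imbibed Col-0, and 220.5, 151.5 and 168.5 RPKM in dry erf4 against 124, 123 and 90.04 RPKM in dry Col-0. AT5G23740 had 269, 153 and 163 RPKM in imbibed erf4 against 95.6, 112 and 95.6 RPKM in imbibed Col-0, and 157, 63.7 and 71.3 RPKM in dry erf4 against 78.9, 77.5 and 56.3 RPKM in dry Col-0. In imbibed seeds the share (erf4 minus Col-0) differed by -8.96 points for AT3G48930 and by 8.67 points for AT5G23740, both without overlap. In dry seeds the differences were 5.15 and -4.93 points, and the libraries overlapped.

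No member passed the test for a different imbibition response in the genotypes by edgeR. This interaction was called for 0 members and 0% of all genes tested. At an unadjusted p under 0.05 it held for 4 members, all with the smaller rise in erf4, where 6.18% of all genes did so. The lowest adjusted p was 0.225, for AT1G58380 of S2 (-0.74 ± 0.17, erf4 minus Col-0 response on the log2 scale), which DESeq2 called (-0.74, adjusted p = 0.0125, where 0.552% of all genes were called lower). The interaction and the dry comparison share their dry libraries.

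Genes that act with the members were followed in lists set by function. Over all tested genes, 28.4% rose and 27.2% fell with imbibition in erf4, and 27.2% rose and 25.2% fell in Col-0. Between the genotypes in dry seeds, 0.519% were higher in erf4 and 0.577% lower. Of 29 tested genes for the other 40S proteins (S21 to S30 and RACK1, a scaffold on the head), 23 rose and 1 fell with imbibition in erf4, and 22 rose and 1 fell in Col-0 (medians 0.85 and 1.00). RACK1C had 74.7 ± 8.94 CPM in imbibed erf4 against 6.97 ± 1.63 CPM in dry erf4, and 57.2 ± 0.444 CPM in imbibed Col-0 against 2.97 ± 0.881 CPM in dry Col-0, changes of 3.42 ± 0.21 and 4.26 ± 0.22 (edgeR adjusted p = 1.3e-07 and 4.76e-08). AT3G09680, an S23 gene, had no count in the dry groups and 0.761 ± 0.135 CPM in imbibed erf4 and 0.544 ± 0.233 CPM in imbibed Col-0. In dry seeds 5 of the 29 were higher in erf4 and 0 lower (median 0.48), the largest called being AT5G56670 of S30 at 46.5 ± 17.6 CPM in dry erf4 against 16.1 ± 2.93 CPM in dry Col-0 (1.53 ± 0.25, edgeR adjusted p = 0.0141) and RACK1C (1.23 ± 0.21, adjusted p = 0.0153). In imbibed seeds 0 of 29 were called between the genotypes, with a median of 0.43.

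Most ribosome assembly factors of the nucleolus rose too. Of 26 tested, 21 rose and 0 fell in erf4, and 23 rose and 0 fell in Col-0 (medians 0.79 and 0.84). FIB2, a fibrillarin that methylates ribosomal RNA, had 273 ± 15 CPM in imbibed erf4 against 51 ± 9.73 CPM in dry erf4, and 225 ± 3.05 CPM in imbibed Col-0 against 23.1 ± 5.16 CPM in dry Col-0, changes of 2.42 ± 0.17 and 3.29 ± 0.18 (edgeR adjusted p = 3.51e-07 and 6.94e-08). Their median log2 fold change of erf4 against Col-0 was 0.06 in dry and 0.16 in imbibed seeds, beside 0.01 over all genes in both. FIB2 (1.15 ± 0.17, adjusted p = 0.00808) and NAP57 (0.57 ± 0.11, adjusted p = 0.0293), the pseudouridine synthase of ribosomal RNA, were called higher in dry erf4, and 0 of 26 were called in imbibed seeds.

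Translation initiation factors moved in both directions. Of 27 tested, 11 rose and 2 fell with imbibition in erf4, and 10 rose and 4 fell in Col-0 (medians 0.18 and 0.15). Their sum was 4825 to 4962 CPM in imbibed erf4 against 4627 to 4689 CPM in dry erf4, and 4757 to 4831 CPM in imbibed Col-0 against 4430 to 4611 CPM in dry Col-0. AT5G54760 of the eIF1 family rose by 1.27 ± 0.18 in erf4 and 1.05 ± 0.18 in Col-0 on the log2 scale (edgeR adjusted p = 5.49e-05 and 0.000275). The largest fall of the list in both genotypes was that of the more abundant AT4G27130. It had 219 ± 39.9 CPM in imbibed erf4 against 400 ± 48.6 CPM in dry erf4, and 242.5 ± 6.45 CPM in imbibed Col-0 against 451 ± 21.4 CPM in dry Col-0. These are log2 fold changes of -0.87 ± 0.15 and -0.89 ± 0.15 (edgeR adjusted p = 0.000236 and 0.00021). Between the genotypes 0 of 27 were called in either state (medians 0.01 dry and 0.03 imbibed).

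In the TOR and S6 kinase list of 5 genes, S6K2, a kinase of S6, fell with imbibition while both S6 genes rose. It had 42.8 ± 2.76 CPM in imbibed erf4 against 139.5 ± 18.9 CPM in dry erf4, and 53.6 ± 4.69 CPM in imbibed Col-0 against 149.5 ± 15.3 CPM in dry Col-0 (-1.70 ± 0.13 and -1.48 ± 0.13, edgeR adjusted p = 5.58e-07 and 1.62e-06). PK1 (AT3G08730), the other S6 kinase gene of the list, was not called (0.16 ± 0.13 in erf4 and 0.07 ± 0.13 in Col-0, edgeR adjusted p = 0.303 and 0.696). LST8-1 rose in erf4 (0.38, edgeR adjusted p = 0.0358). TOR itself was not called, at 132 ± 19.1 CPM in imbibed erf4, 114.5 ± 35.4 CPM in dry erf4, 139.6 ± 7.29 CPM in imbibed Col-0 and 165.5 ± 5.16 CPM in dry Col-0, and 0 of 5 were called between the genotypes in either state.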

How the data were processed

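The whole-number counts per gene are as deposited by the authors, 1 table for 12 libraries. Per the submitters' processing notes, fastp 0.20.0, HISAT2 2.1.0, featureCounts 2.0.1, DESeq2 1.34.0 and the TAIR10 build were used, and the strand setting is not given in the sources used here. From the deposited counts, genes were filtered with filterByExpr (18897 of 32833 kept, 99.97% of counts), scaled by TMM and fitted with 4 group means over all 12 libraries by edgeR 4.0.16 (robust quasi-likelihood F test, 8 residual df, biological coefficient of variation 0.241, R 4.3.3, limma 3.58.1). P-values were adjusted by Benjamini-Hochberg over all genes tested, and SE is the log2 fold change over the square root of F. DESeq2 1.42.0 was an alternative. The fit was tested on simulated data.

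The members, gene lists and tests were chosen with earlier results of these data known. Values in every library are given for the called members with the 5 largest changes per contrast, at least 1 CPM and no overlap between the groups (which leaves out AT1G59359), the most and least abundant member, and the families whose leading paralog differed between groups or whose shares changed most. Shares and motifs were described only. Transcripts were compared with BLAST 2.17.0, and coding sequences were aligned with Biopython 1.88. Replicate numbers paired the libraries most clearly in erf4, by the data and not the labels. Same-numbered imbibed and dry erf4 libraries had r of 0.341 to 0.350 in their deviations from the group mean, and the 6 other pairs -0.214 to -0.115. In Col-0 the pairing was weaker, with r of 0.0655 to 0.215 against -0.15 to 0.0535 in the 6 other pairs. No library repeated another: replicates had r of 0.958 to 0.983 and a chi-square per degree of freedom of 20.5 to 158. Alternatives changed the normalization, filter, samples, covariates, tool, threshold and scaling.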

Additional observations from a re-analysis of the deposited data

Results flagged for a closer look

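In S15a the share of AT1G07770 was 3.99 percentage points higher in dry erf4 than in dry Col-0, with every dry erf4 library above every dry Col-0 library. It was -1.33 points (erf4 minus Col-0) in imbibed seeds, with every erf4 library below every Col-0 library, though the nearest were 15.3515% in erf4 and 15.3534% in Col-0. The difference between the states was not tested, and AT1G07770 shares 201 near-identical bases with a gene outside the list.

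In S3 the share of AT5G35530 changed by -2.58 points (imbibed minus dry) in erf4 and by 1.16 points in Col-0, and the imbibed libraries did not overlap the dry ones in either genotype. The difference between the genotypes was not tested.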

How the results depend on the processing

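The counts of imbibition calls stayed within 1.5 times the count given under every alternative except a threshold of 2-fold (25 in erf4, 20 in Col-0). All calls were higher, except that AT5G09500 was lower in erf4 with DESeq2 and with no filter. Leaving out 1 library gave 42 to 53 calls in erf4 and 38 to 48 in Col-0. In the fit on all 12 libraries 28.4% of all tested genes rose in erf4 and 27.2% in Col-0. The dry genotype calls moved most: 12 members with DESeq2, 18 with the name letter as covariate, and 0 with only the groups compared in the fit, without both libraries labelled erf4 replicate 3, at an adjusted p under 0.01, or at 2-fold or more. Leaving out 1 library gave 0 to 5 (0.0877 to 0.86% of all genes were called higher). In imbibed seeds DESeq2 called 7 and in the interaction 1, and leaving out 1 library gave 0 to 0 in both. The interaction needs all 12 libraries, so it was not run on the groups compared alone. The causes were not tested. The AT3G02560 log2 fold change, imbibed vs dry in Col-0, lay between -0.024 and 0.20 when 1 library was left out, -0.024 being without dry Col-0 replicate 3. Leading paralogs differed between groups in 8 families with no length scaling, and in 9 to 11 without 1 library. For the members with values given in every library, the log2 fold changes with imbibition in each genotype were followed under the alternatives. Those between the genotypes in dry seeds were followed for the called members only. The tally is thus mostly of imbibition changes, with none from imbibed genotypes or the interaction. Of the values followed, 1685 kept their side of the threshold, 42 crossed it upwards, 68 crossed it downwards and 1 changed sign. Counts of calls and of leading paralogs are not in this tally.

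Same-numbered imbibed and dry libraries had r of 0.0655 to 0.215 in Col-0, above the 6 other pairs (-0.15 to 0.0535), a weaker pairing than in erf4. Same-numbered libraries of the genotypes had r of -0.277 to 0.0683 in dry and -0.238 to 0.0766 in imbibed seeds. Between the genotypes the numbers thus did not pair the libraries. Pairs with different numbers had r of -0.251 to 0.354 in dry and -0.256 to 0.344 in imbibed seeds. In both states the highest r was between erf4 replicate 2 and Col-0 replicate 3. The reason was not tested. With the number as a replicate block, 51 members were called with imbibition in erf4, 45 in Col-0, 5 between the genotypes in dry seeds and 0 in imbibed seeds, and 0 in the interaction. With the block on the erf4 libraries alone, where the numbers paired them most clearly, 53 members were called with imbibition in erf4. This fit was added after seeing the data. The share of all genes called in the block fits is not given here, so these counts show only how the member calls moved. AT1G59359 was no longer called with the block on all libraries and was filtered out of the other fit. Depth limits only AT2G39590, AT5G09500, AT5G59240 and AT1G59359, the members with libraries at 0.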
